A study of Capitella teleta with 10 samples.

Results

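The first and the last stage of an accessibility time course of the annelid Capitella teleta were set against each other, the stage 8 larva against the 64-cell embryo. All 46409 consensus peaks of the series were members of the comparison, with 4 libraries of the 10 in all, 2 at stage 8 and 2 at the 64-cell stage. The other 6 libraries, from the gastrula and from the larva at stage 4tt and stage 5, were used for the spread between replicates and to place each change in time. Each library came from whole animals pooled to about 50000 cells, from about 50 larvae at stage 8 and about 500 embryos at the 64-cell stage, none of them carrying a mutation or treatment in the labels. A stage 8 library therefore mixes all tissues of the larva, and more cells of a type with an open region cannot be told apart from a region that is more open in each cell.

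ATAC-seq uses a transposase that cuts and tags DNA where it is not wrapped in nucleosomes, so that reads pile up over promoters, enhancers and other open regions. In spiral-cleaving animals such as annelids the early embryo divides in a fixed pattern before gastrulation moves the germ layers into place. In Capitella teleta the larva does not feed and forms the segments of the juvenile trunk before it settles. Between the 2 ends of the series lie gastrulation and the formation of the larval tissues.

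The values are the normalised signal of each consensus peak in each library, in which a stronger value means more reads after the scaling of the authors. Reads were recovered from these values, so depths are approximate. The stage 8 libraries held 56961033 and 37749494 reads in consensus peaks, with 679 and 461 reads over the median peak. The 64-cell libraries held 14059041 and 16581172 reads, with 144 and 173 over the median peak. Replicates differed by more than counting noise, as chi-square divided by its degrees of freedom was 3.97 at stage 8 and 6.17 at the 64-cell stage. The stage 8 libraries were sequenced at another place and on another instrument than the 64-cell libraries. Stage 5 shared the set of stage 8, and gastrula and stage 4tt shared the set of the 64-cell embryo. For the net change between the ends, stage and sequencing set cannot be told apart.

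The question was how many regions were more open at the end of the series than at its start, how many were less open, and how many stood at the same level. At stage 8, 18251 peaks were gained, which is 39.3% of all peaks, and 10658 were lost, which is 23.0% (limma on log2(value + 1), adjusted p under 0.05 over all peaks). A further 12659 peaks, 27.3%, were held, defined as peaks that were not called and whose 95% confidence interval lay within 2-fold in both directions. The 4451 remaining peaks with signal were undetermined, and 390 were at 0 in all libraries. The gained peaks had a median log2 change of 0.86 and the lost peaks a median of -0.80. The groups of libraries did not overlap for 18244 of the gained peaks and 10649 of the lost peaks, counts that rest on the same values as the call. Over all peaks both stage 8 libraries stood above both 64-cell libraries in 23346, 50.3%, and below both in 13789, 29.7%, which include 3389 and 2541 of the held peaks.

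The excess of gains over losses depended on the scaling. Gains were 63.1% of the changed peaks with the deposited scaling, 51.9% with TMM factors, 53.1% after quantile normalization and 70.7% with equal totals. The median log2 change of the 46019 peaks with signal was 0.23 in the deposited scaling and 0.06 with TMM factors, so each log2 change in the deposited scaling is to be read beside that shift. Of the gained peaks 13339, or 73.1%, were called as gained under all 8 scalings and tools tried, the deposited scaling included, as were 8717 of the lost peaks, or 81.8%, as lost. The held class moved more with the scaling, and 6823 of its peaks, 53.9%, were held under all 7 settings that give an interval. The counts also rest on which regions are in the consensus set. Of 5848 regions called in both 64-cell peak lists and no stage 8 list, 58.7% lay outside the consensus peaks. Of 20265 called in both stage 8 lists and no 64-cell list, 20.0% lay outside them. What this had to do with the excess of gains was not tested.

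**Figure D1:**
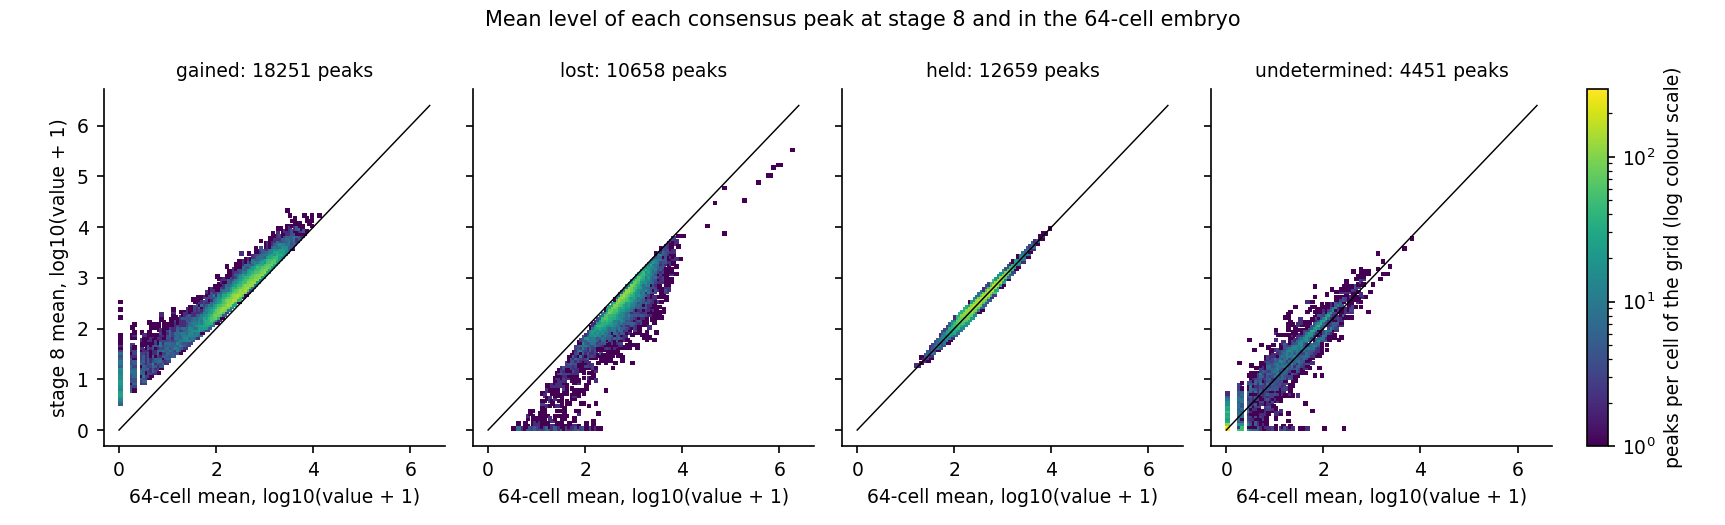
Mean value of each consensus peak at stage 8 (vertical) against the 64-cell embryo (horizontal), both as log10(value + 1), by class, with the number of peaks per grid cell in colour on a log scale and equality as the diagonal. The 18251 gained peaks lie above the diagonal, the 10658 lost peaks below it with a tail of strong peaks far below, and the 4451 undetermined peaks are mostly weak.

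Losses and gains differed in the kind of peak that changed steeply. At least 2-fold gains numbered 7308, 15.7% of all peaks, and at least 2-fold losses 4011, 8.64%. At least 4-fold changes were 1552 gains and 1065 losses. Gains of at least 4-fold were mostly weak peaks, with a median stage 8 mean of 49.7 among the 4-fold gains, against a median peak of 359 at that stage. Losses of at least 4-fold were stronger, with a median 64-cell mean of 548 among the 4-fold losses, against a median peak of 335 at that stage. Among changes of at least 16-fold both were weak, with 36.8 at stage 8 for 132 gains and 74.6 in the 64-cell embryo for 127 losses. Of the gained peaks 313 were at 0 in both 64-cell libraries, and 106 of the lost peaks were at 0 in both stage 8 libraries, where the fitted fold is no bound. With these set at their bound against 3 reads per library, the 4-fold changes were 1286 gains and 1043 losses and the median log2 changes were 0.85 and -0.80.

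As a share of the signal in all consensus peaks, the gained peaks held 55.1% and 54.6% in the stage 8 libraries, against 28.7% and 29.6% in the 64-cell libraries. The lost peaks held 21.2% and 21.3% at stage 8, against 50.3% and 48.3% at the 64-cell stage. The held peaks stood at 22.8% and 23.2% at stage 8, against 20.3% and 21.5% at the 64-cell stage. The classes were chosen on these values, so the shares describe their weight and test nothing. A part of the shift came from 10 very strong peaks, which are described further on. Without them the gained peaks held 57.4% and 56.9% at stage 8, against 37.1% and 36.2% at the 64-cell stage. The lost peaks then held 17.95% and 18.003% at stage 8, against 35.8% and 36.6% at the 64-cell stage. For the held peaks the direction turned, with 23.7% and 24.2% at stage 8, against 26.3% and 26.3% at the 64-cell stage.

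The largest losses, chosen by size of change among peaks above the median of the 64-cell embryo, were nearly closed at stage 8. CTEL_peak_43595 (scaffold 868, 26183 to 26971) had 58.9 and 54.7 at stage 8, against 2696 and 2938 in the 64-cell embryo, a log2 change of -5.61 ± 0.17 (SE). CTEL_peak_24099 (scaffold 353, 97508 to 98557) had 65.8 and 91.9 at stage 8, against 3198 and 2845 in the 64-cell embryo, a log2 change of -5.26 ± 0.17. CTEL_peak_26827 (scaffold 4, 1051802 to 1052272) had 65.0 and 59.4 at stage 8, against 1792 and 2430 in the 64-cell embryo. In each of these the stage 8 libraries lay close together and far below both 64-cell libraries. CTEL_peak_45308 (scaffold 94, 246645 to 246949) had 18.05 and 20.7 at stage 8, against 762 and 1033 in the 64-cell embryo, on 35 and 26 reads at stage 8. The other 6 of the 10, CTEL_peak_31993, CTEL_peak_25955, CTEL_peak_14224, CTEL_peak_13076, CTEL_peak_39649 and CTEL_peak_8599, had log2 changes between -4.90 and -4.58. The adjusted p of the 10 lay at or under 4.66e-07 (limma), and none of the 10 lost its call under an alternative setting.

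Width and spacing of these 10 regions were as follows. Their width ran from 305 to 1050 bp with a median of 506 bp, against 810 bp over all peaks. In 9 of the 10 another consensus peak lay within 2000 bp, beside 54.8% of all peaks, and none was alone on its scaffold, beside 7.26% of all peaks. All 10 were called in both 64-cell lists and in no stage 8 list, with fold enrichments at the 64-cell stage of 1.81 to 6.23 in the first list. Among the 100 largest losses 79 had a neighbour within 2000 bp and 4 were alone on their scaffold. No annotation was placed on these scaffolds here, so the genes near them are not named.

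The largest gains were chosen in the same way, among peaks at or above the stage 8 median of 359. These 10 were smaller in fold than the 10 losses and less alike. Steeper gains lay outside this choice. Over all peaks, 132 gains and 127 losses were at least 16-fold, with a median stage 8 mean of 36.8 among these gains. CTEL_peak_27672 (scaffold 415, 16752 to 18268) had 2978 and 3079 at stage 8, against 333 and 326 in the 64-cell embryo, a log2 change of 3.20 ± 0.13. CTEL_peak_23175 (scaffold 338, 13145 to 13813) had 3100 and 2745 at stage 8, against 332 and 334 in the 64-cell embryo, a log2 change of 3.13 ± 0.12. CTEL_peak_44529 (scaffold 900, 31203 to 31892) had 1200 and 1033 at stage 8, against 92.8 and 109 in the 64-cell embryo, a log2 change of 3.46 ± 0.20. These 3 had the smallest standard errors of the 10 gains, and both stage 8 libraries stood far above both 64-cell libraries. CTEL_peak_23183, which lies on scaffold 338 like CTEL_peak_23175 (35139 to 35422), had 392 and 457.5 at stage 8, against 34.8 and 50.5 in the 64-cell embryo. The gain first in rank, CTEL_peak_8767 (scaffold 1625, 4251 to 6354), had 371 and 376 at stage 8, against 44.0 and 21.3 in the 64-cell embryo, where it rested on 19 and 11 reads.

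Other gains rested on 64-cell libraries that disagreed. CTEL_peak_38371 (scaffold 6834, 6114 to 6802) had 1650 and 1659 at stage 8, against 234 and 93.7 in the 64-cell embryo, a log2 change of 3.47 ± 0.80. Its called peaks had fold enrichments of 26.1 and 26.9 in the stage 8 lists, against 24.4 and 22.8 in the 64-cell lists, so the lists were close where the table values were far apart. CTEL_peak_24645 (scaffold 3627, 3744 to 5212) had 737 and 539 at stage 8, against 208 and 23.3 in the 64-cell embryo. Without stage 8 replicate 1 its adjusted p was 0.111 and that of CTEL_peak_38371 was 0.0553, and both lost their call again without stage 8 replicate 2 (limma). CTEL_peak_38371 also lost it without 64-cell replicate 2, with an adjusted p of 0.0624 (limma). CTEL_peak_39673, CTEL_peak_18248 and CTEL_peak_14715 completed the 10, with log2 changes between 3.12 and 3.47. Of the 10 largest gains 4 were alone on their scaffold and 3 had a neighbour within 2000 bp. Among the 100 largest gains 18 were alone and 50 had a neighbour within 2000 bp, the second close to the 54.8% of all peaks.

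**Figure D2:**
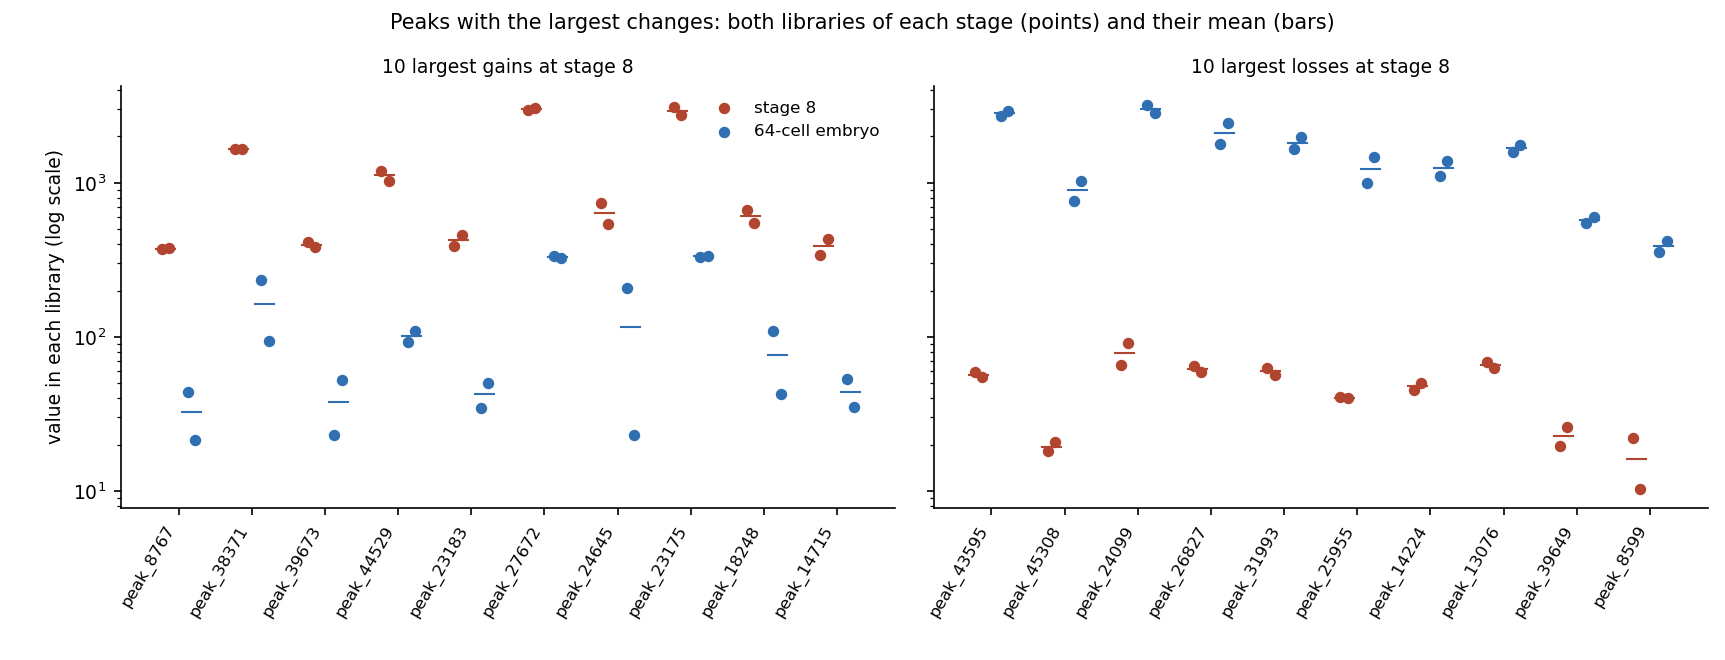
Value of each of the 10 largest gains and 10 largest losses in both stage 8 libraries (left in each pair) and both 64-cell libraries (right), on a log axis, with bars at the means. The 64-cell values of the losses reach 3198 and their stage 8 values stay at or under 91.9, while the gains start from 64-cell values between 21.3 and 334.

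The 10 largest losses had their steepest step early, while the 10 largest gains were spread over the series. Along the 5 stages, in order from the 64-cell embryo to stage 8, the medians of the stage means of these losses were 1465, 173, 103, 83.3 and 52.4. CTEL_peak_43595 had already dropped to 206 and 156 in the gastrula. Most of the decline of these 10 peaks thus lay between 2 stages of the same sequencing set. The 64-cell values that chose the peaks also enter that step. For the 10 largest gains the medians along the stages were 88.3, 187, 260, 333 and 622. CTEL_peak_23175 reached only 689 and 652 at stage 5, so that its steepest step was the last one, also within 1 sequencing set. CTEL_peak_23183 was at 46.3 and 48.9 at stage 5, close to its 64-cell values, and its gain fell mostly between stage 5 and stage 8. The stage 8 values that chose both peaks also enter this last step. The 2 gains first in rank instead rose over the step between sequencing sets. CTEL_peak_8767 changed by 3.22 on the log2 scale from stage 4tt to stage 5. It changed by -0.36 from the 64-cell embryo to stage 4tt and by 0.71 from stage 5 to stage 8. For CTEL_peak_38371 the step between the sets was 4.29, and the changes within the sets were -0.35 and -0.46.

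Over all members of a class the course was more gradual. Given per library pair from the 64-cell embryo onward, the median gained peak was at 287 and 279, then 243 and 219, then 295 and 294, then 415 and 409, and at stage 8 at 507 and 530. The median lost peak was at 595 and 643, then 502 and 507, then 448 and 448, then 407 and 412, and at stage 8 at 321 and 335. The lost class declined at every stage. The gained class was lowest in the gastrula, but so were the held peaks, with 323 and 307 there, and all peaks, with 273 and 257.

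**Figure D3:**
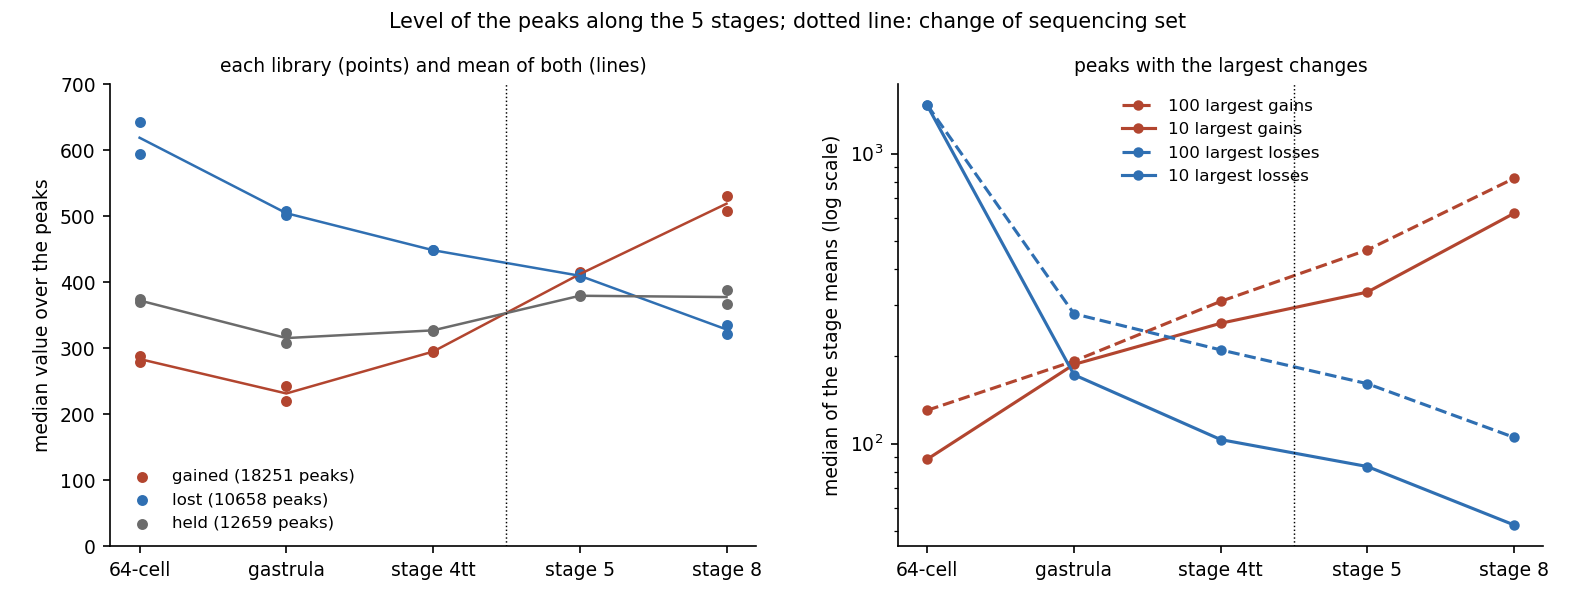
Left, median value of the gained, lost and held peaks in each library along the 5 stages, with lines through the mean of both libraries. Right, median of the stage means, on a log axis, for the 10 and 100 largest gains and losses, where the 10 largest losses stand at 1465 in the 64-cell embryo and at 173 in the gastrula. The dotted line marks the change of sequencing set between stage 4tt and stage 5.

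The net change can be divided into the part within the sequencing sets and the step between them. The changes from the 64-cell embryo to stage 4tt and from stage 5 to stage 8 lie within a set and share their end libraries with the net change, so they are given as values only. The lost class had medians of -0.36 and -0.33 over these intervals and -0.16 over the step between the sets. The gained class had 0.16 and 0.25 within the sets and 0.48 over the step between them. The sum of the changes within the sets was below 0 for 87.1% of the lost peaks and for 95.3% of those lost at least 2-fold. It was above 0 for 73.3% of the gained peaks and for 80.7% of those gained at least 2-fold. Over all peaks with signal it was above 0 for 46.5% and below 0 for 53.3%. By these medians the step that crossed sequencing sets made up more of the gains than of the losses. Over all peaks with signal that step had a median of 0.24, against -0.07 between the 64-cell embryo and stage 4tt.

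Comparisons that share no library with either end gave the following calls for the same peaks. From gastrula to stage 4tt, 36.1% of the gained peaks opened and 8.37% closed, against 21.7% and 14.7% of all peaks. Of the lost peaks 8.89% opened and 28.6% closed over this interval. From stage 4tt to stage 5, which crosses the sequencing sets, 53.7% of the gained peaks opened and 12.5% closed, against 39.8% and 20.0% of all peaks. Of the lost peaks 21.4% opened and 37.7% closed over that interval. Both intervals thus moved gained peaks upward and lost peaks downward more often than all peaks. The second interval crosses the same 2 sequencing sets as the net change, so there stage and set cannot be told apart either.

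The classes differed in strength. In 5 classes of equal size by mean value over the 10 libraries, the gained share was 33.6% in class 1, the weakest, then 40.1%, 38.9% and 36.2%, and 47.8% in class 5. Gains of at least 2-fold had the opposite order, with 27.6% in class 1, then 17.1%, 12.8% and 10.6%, and 979 of 9282 peaks in class 5. The lost share was 9.46% in class 1, then 19.3%, 26.4% and 32.0%, and 27.7% in class 5. The held share was highest in class 2, at 36.4%, and lowest in class 1, at 10.6%, where 42.2% of the peaks were undetermined. The confidence interval reached a median of 1.31 log2 units to either side over the undetermined peaks, and 0.33 over the held peaks. After quantile normalization class 1 had 19.4% gained and 14.7% lost.

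Wide peaks were called as gained more often than narrow ones, but not at a 2-fold minimum. In 5 classes of equal size by width, the narrowest, at most 427 bp, had 33.7% gained and 19.0% lost. The widest, at least 1347 bp, had 49.6% gained and 23.5% lost. At least 2-fold gains made up 19.6% of the narrowest class and 14.1% of the widest, and 20.0% of the narrowest were undetermined, beside 2.22% of the widest. Wide peaks were also strong, so width was read within classes of strength. Strength is the signal of the whole peak, so at equal strength a wider peak has less signal per kb. In 5 classes by signal per kb, the lost share was 9.97% in the weakest, 34.4% in class 4 and 31.1% in class 5. The gained share was 35.9%, 33.2% and 43.5% in the same classes. What signal per kb had to do with the shares by width was not tested. In strength class 3, 57.4% of the 631 widest peaks were gained and 12.0% lost, whereas 30.5% of the 944 narrowest were gained and 40.6% lost. In strength class 4, 48.7% of the 2611 widest peaks were gained and 20.0% lost, and of the 226 narrowest 34.5% were gained and 43.4% lost. In strength class 2 the widest had 57.6% gained and 13.4% lost, and the narrowest 35.0% and 24.0%. In these 3 strength classes narrow peaks were more often lost and wide peaks more often gained, with signal per kb not held equal. The lost share did not differ in this way in the weakest class, with 8.90% of the widest and 9.11% of the narrowest, nor in the strongest, with 27.9% of the widest and 23.1% of the 13 narrowest.

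**Figure D4:**
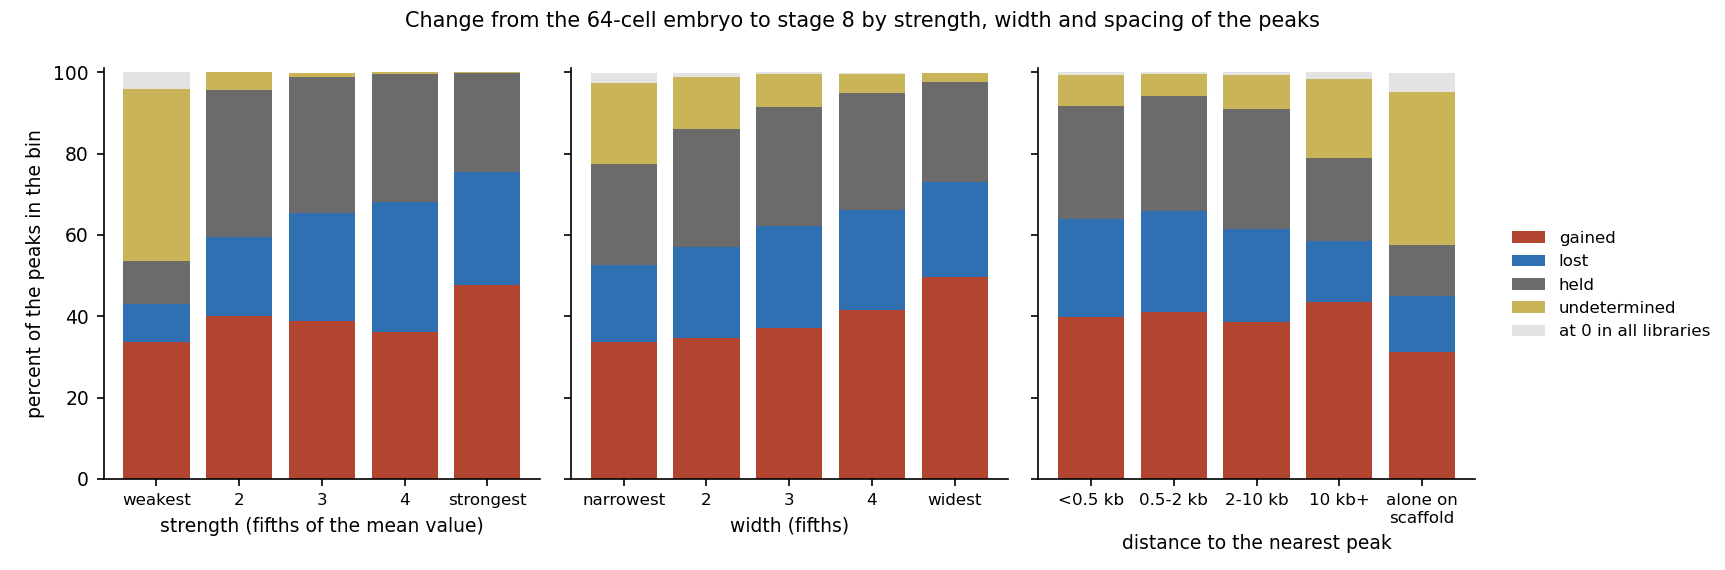
Share of gained, lost, held and undetermined peaks in 5 classes of strength, 5 classes of width and classes of distance to the nearest consensus peak, in percent of the peaks in each bin. Gains run from 33.7% in the narrowest to 49.6% in the widest class, and undetermined peaks make up 42.2% of the weakest class and 37.8% of the peaks alone on their scaffold.

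The 3 widest peaks did not share a direction. CTEL_peak_11507 (5828 bp, scaffold 19, 702148 to 707975) had 16594 and 15738 at stage 8, against 7142 and 6593 in the 64-cell embryo, and it stood between these values at every stage between. CTEL_peak_25094 (5759 bp, scaffold 37, 714967 to 720725) had 2830 and 2951 at stage 8, against 1802 and 1864 in the 64-cell embryo, with a low of 811 and 871 in the gastrula. CTEL_peak_20690 (5662 bp, scaffold 300, 40645 to 46306) had 4186 and 3948 at stage 8, against 4442 and 4706 in the 64-cell embryo. Its log2 change of -0.17 ± 0.06 was a call (adjusted p = 0.0178, limma) that was lost with equal totals, where the adjusted p was 0.523. The call was also lost with the 4 libraries alone (adjusted p = 0.0534), without 64-cell replicate 2 (0.0902) and without stage 8 replicate 2 (0.154).

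The widest of the 5 width classes held 49.8% and 49.3% of the signal in the stage 8 libraries, against 54.5% and 52.6% in the 64-cell libraries. The difference of means was -4.02 percentage points (exact permutation test, two-sided p = 0.33, the smallest that 2 against 2 libraries allow). Without the strongest peak, a setting chosen after seeing the data, the difference was -1.71 percentage points. The widest class then held 49.3% and 48.7% at stage 8, against 51.4% and 50.1% at the 64-cell stage. The groups did not overlap in either form. The 10 strongest peaks include wide ones such as CTEL_peak_13150 at 2237 bp. Together they held 3.90% and 4.05% of the signal at stage 8, against 22.7% and 18.3% at the 64-cell stage. The share of the widest class without all 10 was not computed, so no direction is read from these differences.

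Where the nearest peak was under 10000 bp away, the shares lay near those of all peaks, 39.3% gained and 23.0% lost. Of peaks with a neighbour under 500 bp away 39.9% were gained and 24.0% lost, and of those with the nearest neighbour at 2000 to under 10000 bp 38.6% were gained and 22.8% lost. With gaps measured between centres of peaks, 30.0% were gained and 14.6% lost under 500 bp. Neighbours whose centres lie that close are narrower, so this is also another set of peaks. Where the nearest neighbour was 10000 bp or more away, 485 of 1115 peaks, 43.5%, were gained and 167 lost. Peaks that were alone on their scaffold, 3369 in number, were gained in 31.3% and lost in 13.6%, with 37.8% undetermined. These lone peaks were weak, and 2328 of them lay in the weakest strength class. In the strongest class 33.7% of peaks with a neighbour under 500 bp away were lost, and 23.8% at 2000 to under 10000 bp and 20.9% at 10000 bp or more. In strength class 4 these shares were 32.2%, 33.4% and 33.8%, so the order did not hold there. Peaks with a neighbour under 500 bp away held 14.9% and 14.7% of the signal at stage 8, against 12.6% and 13.1% at the 64-cell stage (exact permutation test, two-sided p = 0.33).

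The share of neighbours that changed in the same direction was higher at short gaps. Of neighbours under 500 bp apart that both changed, 75.8% of 1705 pairs changed the same way, with 863 pairs gained, 430 lost and 412 opposite. Over all 17494 such pairs it was 69.7%, and since 63.1% of changed peaks were gained, pairs share a direction in part through the class sizes. The share was 71.7% at 500 to under 2000 bp, 67.7% at 2000 to under 10000 bp, 67.2% at 10000 to under 50000 bp and 60.9% of the 23 pairs at 50000 bp or more. As a description across pairs, which share peaks, libraries and scaffolds, Pearson's r of the log2 changes was 0.39 under 500 bp, 0.31, 0.24 and 0.15 in the next classes. Scaffolds differed as well. On the 68 scaffolds with at least 100 peaks the gained share ran from 22.2% to 54.2% with a median of 36.9%, and the lost share reached 41.7% with a median of 25.8%. Scaffold 9 had the highest gained share, with 97 of 179 peaks gained and 26 lost.

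Runs of adjacent peaks with the same call were counted, and their numbers move with the class sizes of 39.3% gained, 23.0% lost and 27.3% held. Runs of at least 5 gained peaks numbered 581 and held 3892 peaks, against 182 such runs of lost peaks with 1178 peaks and 100 of held peaks with 547. Runs were not counted under another scaling. The longest run of gained peaks, one of 2 of this length, had 21 peaks over 92070 bp at the start of scaffold 112 (13 to 92082). Summed over its peaks, the value was 15272 and 16487 at stage 8, against 6611 and 5131 in the 64-cell embryo. The largest step of its sum was the one between sequencing sets, from 6817 and 6438 at stage 4tt to 13121 and 13559 at stage 5. The log2 changes of its peaks ran from 0.42 to 2.99. The first peak of the run, CTEL_peak_2483, was also its strongest, with 3244 and 3797 at stage 8, against 939 and 738 in the 64-cell embryo. It had fold enrichments of 20.6 and 21.8 in the stage 8 lists, against 19.6 and 19.4 in the 64-cell lists. From stage 4tt to stage 5 it rose from 667 and 361 to 4288.5 and 4623, a large part of the rise of the sum. The course of the sum without this peak was not computed. The last, CTEL_peak_2503, had 581 and 617 at stage 8, against 340 and 311 in the 64-cell embryo.

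The longest run of lost peaks had 20 peaks over 59694 bp on scaffold 1 (359666 to 419359). Its sum was 8374 and 8300 at stage 8, against 20886 and 23044 in the 64-cell embryo. It was still 15089 and 14999 at stage 5, so that its largest step lay between stage 5 and stage 8, within 1 sequencing set. The strongest peak of the run, CTEL_peak_66, had 1370 and 1337 at stage 8, against 2449 and 2667 in the 64-cell embryo, and was above its 64-cell values in the gastrula with 3130 and 3223. The first, CTEL_peak_62, had 249 and 215 at stage 8, against 516 and 600 in the 64-cell embryo. The last, CTEL_peak_81, was weak, with 74.1 and 69.8 at stage 8, against 99.6 and 151 in the 64-cell embryo, and lost its call without 64-cell replicate 2 (adjusted p = 0.136, limma) and without stage 8 replicate 2 (0.0676). The longest run of held peaks had 11 peaks over 66277 bp on scaffold 26, with sums of 5181 and 5651 at stage 8, against 5293 and 5631 in the 64-cell embryo. It was not flat between the ends, with 9748 and 9623 at stage 4tt.

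**Figure D5:**
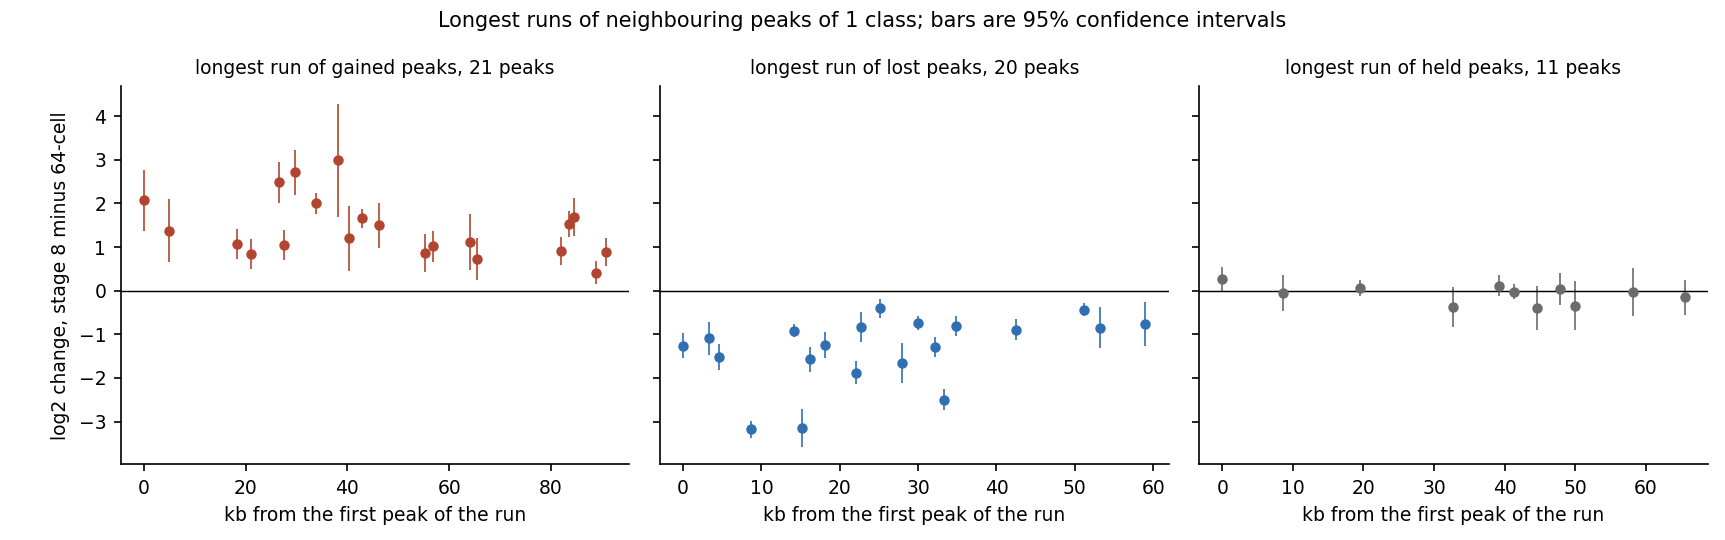
Log2 change (stage 8 minus 64-cell embryo) with 95% confidence intervals of each peak in the longest run of gained, lost and held peaks, against the distance in kb from the first peak of the run. The 21 gained peaks range from 0.42 to 2.99, the 20 lost peaks from -3.18 to -0.41, and the 11 held peaks from -0.39 to 0.26.

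The peaks that stood at the same level at both ends were not all constant between them. Of the 12659 held peaks 1008, or 7.96%, were at least 2-fold above both ends at the gastrula, stage 4tt or stage 5. At least 2-fold below both ends at one of these stages were 2361, or 18.7%. The remaining 9300, or 73.5%, were neither, and 10 were both. Dips lay mostly in the gastrula, where 1998 held peaks were at least 2-fold below both ends, against 40 at stage 5. The same count was not made over all peaks, whose median was also lowest in the gastrula, at 273 and 257. From the 64-cell embryo to the gastrula 41.8% of the held peaks closed, beside 36.3% of all peaks. The dipping peaks had median stage means of 274, 114, 140, 262 and 289 along the 5 stages, and the peaks that were higher between had 184, 425, 412, 242 and 180. The confidence interval lay within 0.5 log2 units in both directions for 6461 of the held peaks and within 0.25 for 711.

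The 3 strongest held peaks were all higher between the ends. CTEL_peak_36320 (4667 bp, scaffold 62, 107692 to 112358) had 9842 and 9380 at stage 8, against 10163 and 9442 in the 64-cell embryo, and 17623 and 15568 at stage 5. CTEL_peak_40247 (3170 bp, scaffold 744, 31208 to 34377) had 7508 and 6922 at stage 8, against 7101 and 7708 in the 64-cell embryo, and 11884 and 11519 in the gastrula. CTEL_peak_2213 (2445 bp, scaffold 110, 33776 to 36220) had 6626 and 6576 at stage 8, against 6590 and 6945 in the 64-cell embryo, and 10736 and 10789 at stage 4tt. The groups of libraries overlapped in each of the 3. With TMM factors or quantile normalization each was called as lost, with log2 changes between -0.54 and -0.20, so for these peaks the held call depended on the scaling.

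The strongest peaks of both ends were the same 3 regions, and all were lost. CTEL_peak_13150 (2237 bp, scaffold 2067, 10269 to 12505) had 305800 and 327520 at stage 8, against 2110000 and 1651800 in the 64-cell embryo, a log2 change of -2.56 ± 0.13. CTEL_peak_15319 (scaffold 2314, 5964 to 7820) had 164040 and 176470 at stage 8, against 1108200 and 896880 in the 64-cell embryo. CTEL_peak_16955 (scaffold 2500, 5463 to 7252) had 152820 and 166530 at stage 8, against 1094200 and 863050 in the 64-cell embryo. The 3 moved in parallel, and along the series they declined to 148250 and 166580 at stage 5 for CTEL_peak_13150, below its stage 8 values. Of the 10 strongest peaks 8 had log2 changes between -2.63 and -2.32. The 10 lay on 7 scaffolds with at most 5 consensus peaks each.

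These 10 peaks together held 3.90% and 4.05% of the signal in the stage 8 libraries, against 22.7% and 18.3% in the 64-cell libraries. In their called peaks the fold enrichment over the local background was 5.24 and 5.03 at stage 8 for CTEL_peak_13150, against 6.88 and 6.25 in the 64-cell embryo, while the mean of the table was 5.94-fold higher in the 64-cell embryo. After quantile normalization the 3 strongest had a log2 change of 0.00, as that setting gives the same values to the top ranks of each library. What these regions are was not tested.

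The lists of called peaks gave a second view of the ends. The stage 8 lists held 64765 and 62609 peaks covering 38.9 and 35.1 Mb, against 40205 and 45862 peaks covering 17.7 and 22.4 Mb in the 64-cell lists. Called peaks were wider at stage 8, with medians of 465 and 438 bp, against 351 and 399.5 bp in the 64-cell lists. The 4 lists joined into 84271 regions, of which 20265 were called in both stage 8 lists only, 5848 in both 64-cell lists only and 23783 at both stages. The other 34375 were called in part of the lists of a stage. The excess at stage 8 moved with list length, and with the strongest 40205 peaks of every list 9731 regions were called at stage 8 only and 7668 in the 64-cell embryo only. Without the list of stage 8 replicate 2 there were 31532 regions at stage 8 only, and without that of 64-cell replicate 1 or 2 there were 12200 or 9471 in the 64-cell embryo only. Depth also differed, and its part in the list lengths and in the called widths was not tested.

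The classes of the table were then looked up in the lists. Of the peaks gained at least 2-fold 65.8% were called in both stage 8 lists and no 64-cell list, against 32.6% of all peaks. Of the peaks lost at least 2-fold 36.5% were called in both 64-cell lists and no stage 8 list, against 4.50% of all peaks. Of the held peaks 38.9% were called in all 4 lists and 27.8% in the stage 8 lists only, near the 36.6% and 32.6% of all peaks. Of all lost peaks 50.3% were called in all 4 lists. The lists and the table come from the same libraries, so this is a description of 1 set of reads read in 2 ways.

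Where each list had exactly 1 called peak in a consensus peak, the called width could be compared at the same place. For the 977 such peaks gained at least 2-fold the median called width was 918 and 860 bp at stage 8, against 456 and 524 bp in the 64-cell embryo. For the 879 lost at least 2-fold it was 470 and 425 bp at stage 8, against 595 and 700 bp in the 64-cell embryo. For the 3455 held peaks it was 709 and 659 bp at stage 8, against 448 and 574 bp in the 64-cell embryo, so called peaks were wider at stage 8 also where the level was held. Depth was also higher at stage 8, and its part in the called widths was not tested. Over all 11771 peaks the summit lay a median of 70.5 bp away between stages, and 21 bp between the stage 8 replicates and 40 bp between the 64-cell replicates. For the peaks lost at least 2-fold the summits lay 102.5 bp apart between stages.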

How the data were processed

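ATAC-seq was made from 2 biological replicates per stage at 5 stages. The authors trimmed reads, mapped them, removed duplicates, shifted them for the transposase offset and called peaks in each library with MACS2 2.2.7.1, which is named in the submitters' processing notes. In the deposited lists the authors give a fold enrichment over background, a score and the −log10 of the p-value and of the q-value per peak. The authors kept reproducible peaks, removed those in repeats, and deposited a table of normalised signal per consensus peak and library. The study's methods name the Ensembl Metazoa assembly of Capitella teleta as the base of its annotation. Coordinates are those of the deposited files, with starts counted from 1, and no genome sequence or gene annotation was used. The growth protocol in the labels names another annelid, and the organism label and sample titles were followed. The lists of gastrula, stage 4tt and stage 5 were not used.

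Whole reads were recovered from the signal as multiples of a step that varied with peak strength. Within 0.1 reads, 99.99% of values of 1 to 50 reads and 98.9% of 51 to 200 came out whole, and 70.0% of all values above 0. Values were tested as log2(value + 1) with limma 3.58.1 in R 4.3.3, with trend and robust moderation, all 10 libraries in 1 fit and Benjamini-Hochberg adjustment over 46409 peaks, two-sided. Fold changes on this scale understate those of weak peaks with reads at both ends. For peaks at 0 at 1 end the fitted fold can exceed its bound against 3 reads per library. Called peaks were joined where they shared 1 bp. The design gave peaks to name as the 10 largest gains and losses among called peaks with libraries that did not overlap and a mean at the higher stage at or above its median, the 3 strongest held, the 3 widest, the 3 strongest at each end, and the first, last and strongest peaks of the longest runs. The alternatives were other scalings, pseudocounts, filters and sample sets, edgeR 4.0.16 (quasi-likelihood, 28899 peaks called) and DESeq2 1.42.0 on recovered reads. The scripts were tested on simulated data. Members, classes and lists were chosen with earlier results of these data known. P-values rest on the spread between the 2 libraries of a stage, pooled over the 5 stages and moderated across peaks.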

Additional observations from a re-analysis of the deposited data

Results flagged for a closer look

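Signal appeared in the called lists where the consensus table gave none. Of the regions called in all 4 lists, 6761 overlapped no consensus peak, 28.4% of the 23783, beside 44.5% of all 84271 regions. The median fold enrichment of the 6761 was 3.56 and 3.74 in the stage 8 lists, against 3.93 and 3.96 in the 64-cell lists. Of the 6761, 2648 lay on scaffolds without any consensus peak. The regions over consensus peaks had 3.76 and 3.89 at stage 8, against 3.29 and 3.33 at the 64-cell stage. Of the 390 consensus peaks at 0 in all 10 libraries, 121, or 31.0%, were called in all 4 lists, beside 36.6% of all consensus peaks. The 121 had a median fold enrichment of 3.66 and 4.03 at stage 8, against 4.02 and 3.82 in the 64-cell embryo. The authors removed peaks in repeats from the consensus set, and what that step had to do with either count was not tested.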

How the results depend on the processing

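The numbers of gained, lost and held peaks stayed within 1.5 times the reported ones under all settings but a 2-fold minimum, which left 11319 changed, 7308 gained and 4011 lost peaks (64.6% gained) and 23452 held. The gained share of changed peaks was 63.8% with the 4 libraries alone, 60.2% without the weakest peaks (34807 tested), 62.0% with DESeq2, 51.9% with TMM factors, 53.1% after quantile normalization, 70.7% with equal totals and, chosen after seeing the data, 53.2% with equal totals without the 10 strongest peaks and 56.7% with equal medians. It was 60.1 to 64.5% without each library in turn. The median log2 change was 0.1582 without the weakest peaks, 0.0627, 0.0751 and 0.3499 with TMM, quantile and equal totals, 0.0822 without the 10 strongest and 0.1316 with equal medians, and 0.1957 to 0.2573 without single libraries. With lists of equal length 9731 regions were called at stage 8 only. Without single lists this was 22346 to 31532, with the highest without stage 8 replicate 2, and the 64-cell regions were 6466 to 12200, with 12200 without 64-cell replicate 1 and 9471 without replicate 2. Quantile normalization gave 19.4% gained and 14.7% lost in the weakest strength class. Gaps between centres, which take another set of narrower peaks, gave 14.6% lost under 500 bp. Of 574 values of 34 named peaks under the alternatives 550 kept their call, 15 lost it, 9 became calls and none turned direction. Same-numbered libraries did not deviate together (r = -0.0029 for the 2 ends), and with the replicate block 18169 peaks were gained and 10613 lost, 17983 and 10513 of them the same peaks. Thinning all libraries to 14059041 reads, also chosen after seeing the data, left 16813 gained and 9979 lost. Weak peaks are limited by depth.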

Other observations

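Strong called peaks also occurred among consensus peaks with little table signal. Of the 4451 undetermined peaks 1287, or 28.9%, were called in all 4 lists, beside 36.6% of all consensus peaks. The 1287 had a median fold enrichment of 3.83 and 3.91 at stage 8, against 3.75 and 3.89 in the 64-cell embryo. Over all consensus peaks called in all 4 lists it was 3.77 and 3.89 at stage 8, against 3.29 and 3.33 in the 64-cell embryo. The highest fold enrichment among the 1287 was 34.9 and 36.2 in the stage 8 lists, against 33.7 and 31.5 in the 64-cell lists. In turn, 1108 of the lost peaks, 10.4%, and 579 of the gained peaks, 3.17%, were called in none of the 4 lists, beside 8.17% of all peaks. Peaks alone on their scaffold, which include 3 of the 10 strongest, held 2.67% and 2.70% of the signal at stage 8, against 5.43% and 4.88% in the 64-cell embryo. The shares without the 10 strongest peaks were not computed, so no direction is read from this difference.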
